A study of Mus musculus with 16 samples.

Results

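The lysosomal genes described here were 47 genes named in a list of lysosomal enzymes, membrane proteins and proton pump subunits, all of which had a row among the 13832 genes of the count table. They comprised 18 hydrolases, 2 protein cofactors of hydrolases (Psap and Grn), 9 membrane proteins, 2 transcriptional regulators of lysosomal genes (Tfeb and Tfe3) and 16 subunits and accessory proteins of the vacuolar-type proton pump (V-ATPase). They were taken by name and not by a threshold on a measured value, though the list was drawn up with earlier results of these data known. They were followed in the mouse macrophage-like line RAW264.7, kept for 15, 30, 45, 60, 75 or 90 min or 16 h in 100 ng/ml lipopolysaccharide (LPS, a component of the outer membrane of Gram-negative bacteria) and in untreated cells (0 min). At each time point 1 library of ribosome-protected fragments (footprints) and 1 library of fragmented cytoplasmic RNA (input) were made from the same lysate, so the 16 libraries formed 16 groups of 1. Untreated cells were sampled at 0 min only, so an effect of LPS cannot be told apart from handling or from hours in culture. In bulk samples, fewer cells with a transcript and less of it per cell cannot be told apart either.

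Lysosomes are acidic compartments in which hydrolases break down proteins, lipids and sugar chains taken up by the cell or delivered by autophagy. The V-ATPase acidifies them: its V1 sector hydrolyses ATP outside the membrane and its V0 sector carries protons through it. In macrophages the compartment digests engulfed microbes and cell debris and processes antigens. TFEB and TFE3 are related transcription factors that, once dephosphorylated, enter the nucleus and bind the letters CACGTG (the E-box, which reads the same on both strands) in many lysosomal promoters.

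Deposited counts summed to between 6702930 and 6702932 in every library, so they carry no information on the original depth. Levels are given as CPM, each count over the library total scaled by TMM within each material. Of the 13832 genes, 9529 reached 10 counts in at least 4 libraries of each material and were tested, among them 46 of the 47 lysosomal genes. The pump subunit Atp6v0d2, known from osteoclasts, was not tested. All 10 macrophage markers on a list of such genes were tested, with 44111 counts together in footprints at 16 h, against 29398 to 36767 in the 7 libraries from 0 to 90 min, and 32750 in input at 16 h, against 22244 to 27968. Cd14, a co-receptor for LPS, gave 19794 and 15967 of those at 16 h, and without it the sums were 24317, against 25298 to 30339, and 16783, against 18020 to 19188. Csf1r, Lyz2 and Tyrobp fell at 16 h in both materials, and 5 of the 10 markers rose in footprints and 7 in input. Osteoclast markers summed to 474 counts in footprints and 471 in input at 16 h, against 217 to 489 and 290 to 470 earlier. Their defining member Ctsk had 0 to 3 counts and Oscar at most 1 in any library. At 16 h Dcstamp rose in both materials and Mmp9 had 37 and 42 counts, against at most 1 earlier, whereas Nfatc1 fell in both, Ocstamp had 1 and 0 counts, against 6 to 15 and 3 to 11 earlier, and Acp5 was not called. Fibroblast markers (3 of 7 in the table) summed to 72 counts in footprints and 43 in input at 16 h, against 0 and at most 1 earlier. Lum alone gave 68 and 37 of these. Epithelial markers summed to at most 1, and lymphocyte markers to 29 and 29 at 16 h, against 14 to 29 and 5 to 27. The part of these genes in the results below was not tested.

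RefSeq promoter windows (build GRCm38.p6, from 250 bases before to 50 after the start site) were matched to 40 of the 47 genes. The E-box CACGTG lay in at least 1 window of 12 of the 40, which is 30%, against 12.7% of the 7361 tested genes with a window and 8.09% of all 27025 genes with one. The longer form TCACGTGA, which contains it, lay in 7 of the 40 (17.5%), against 2.46% of tested genes. The full CLEAR consensus, which extends this form further on both sides, lay in 0 of the 40, against 0.965% of tested genes. Stretches of 6 of these promoters are shown, since they carry the letters that TFEB and TFE3 are known to bind and come from genes of 3 role groups that moved differently at 16 h; capitals mark CACGTG.
Lamp1 (chr8:13159081-13159160, + strand): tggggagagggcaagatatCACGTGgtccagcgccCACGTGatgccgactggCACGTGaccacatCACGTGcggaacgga
Mcoln1 (chr8:3500397-3500456, + strand): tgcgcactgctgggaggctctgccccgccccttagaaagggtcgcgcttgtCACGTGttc
Glb1 (chr9:114400998-114401057, + strand): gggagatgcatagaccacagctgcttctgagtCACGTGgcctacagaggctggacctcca
Gaa (chr11:119267793-119267852, + strand): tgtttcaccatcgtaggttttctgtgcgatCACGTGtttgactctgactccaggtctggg
Gla (chrX:134601186-134601245, − strand): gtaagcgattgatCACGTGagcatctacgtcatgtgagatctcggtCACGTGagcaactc
Atp6v0b (chr4:117887334-117887389, − strand): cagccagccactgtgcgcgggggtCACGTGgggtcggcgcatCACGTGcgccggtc
The window of Lamp1 held 4 copies, each shown, and those of Gla, Atp6v0b and Mcoln1 held 2 each, of which 1 in Mcoln1 lies outside the stretch shown. A match is a description of the letters and not evidence of binding. At 16 h in input, the log2 changes described below had a median of 0.62 over the 12 genes with the E-box, of which 8 rose and 1 fell (Lamp1), and of 0.32 over the 28 without it, of which 15 rose and 6 fell. In footprints 9 of the 12 rose and 1 fell (median 0.66), and 13 of the 28 rose and 6 fell (median 0.20). Among all 9529 tested genes, calls at 16 h were upward for 28.3% (input) and 26% (footprints), and downward for 27% and 24.6%. Such shares are not given here for the 934 tested genes whose window holds CACGTG. The counts with and without the E-box were not tested against each other, and the part of the E-box in them was not tested.

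At 16 h most of the lysosomal genes had moved, and most of those had risen. In footprints 26 of the 46 rose and 7 fell, in a library where 26% of all tested genes rose and 24.6% fell (50.6% called in all, by an adjusted p under 0.05). In input 29 rose and 7 fell, against 28.3% and 27% of all tested genes (55.3% in all). The median change was 0.43 on the log2 scale in footprints and 0.46 in input, and stood at 0.004 and 0.007 over all tested genes. Between the materials 25 genes rose in both and 5 fell in both; none was called in opposite directions. The rise was broad in the proton pump and divided among the hydrolases and the membrane proteins. Scaling by total counts gave 21 rises and 10 falls in footprints and 25 and 7 in input. Over all tested genes that scaling called 4902 in footprints, against 4818, and 5483 in input, against 5269. More of these calls with total counts were falls than rises.

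**Figure D1:**
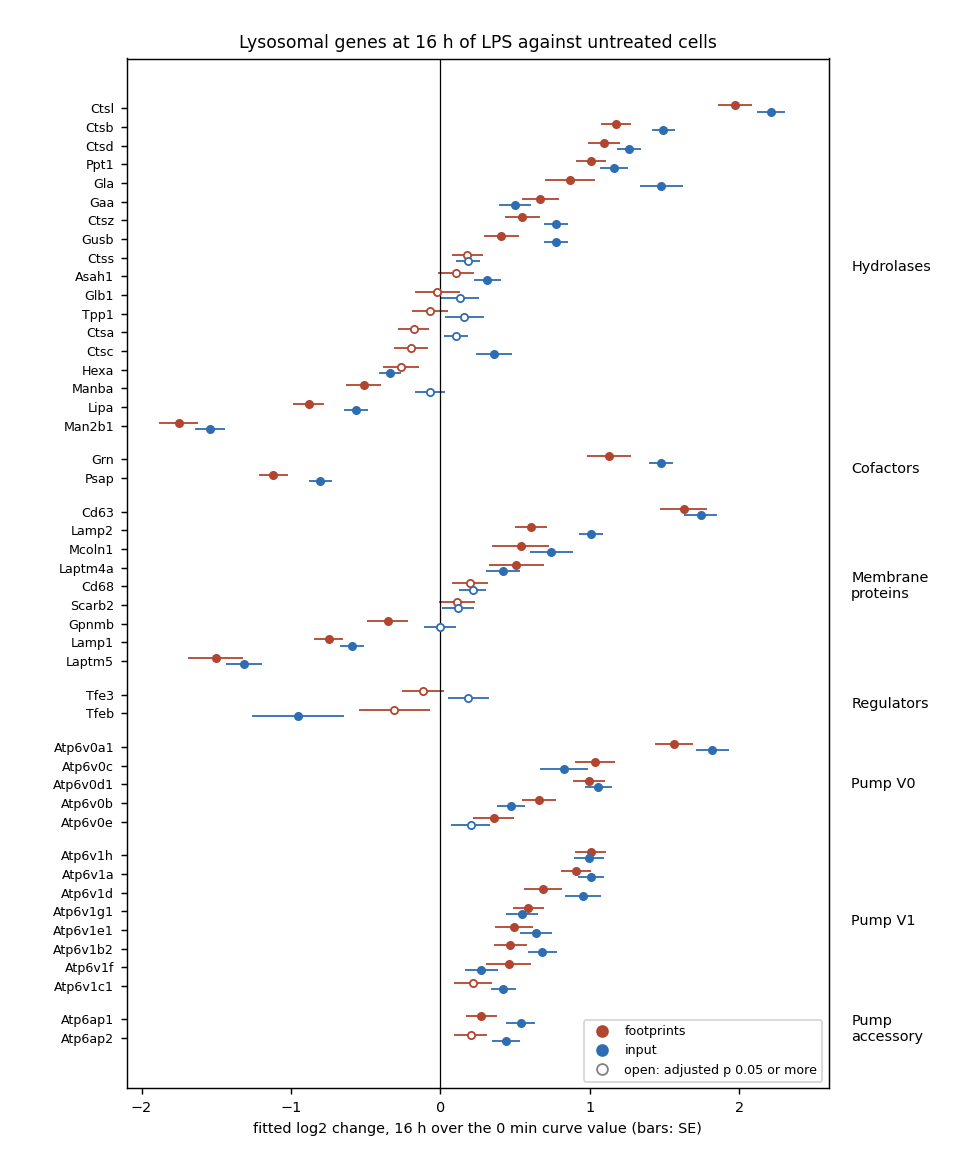
Fitted log2 change of 46 lysosomal genes at 16 h of LPS over the fitted value at 0 min, with its standard error as the bar, in footprints (red) and input (blue), grouped by role; open points had an adjusted p of 0.05 or more. The 15 pump genes all lie right of 0 in both materials, whereas hydrolases run between Ctsl (1.97 in footprints) and Man2b1 (-1.75).

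Among the cathepsins, a family of lysosomal proteases, Ctsl gave the largest rise of the 46 genes, and others were not called. Ctsl, a cysteine protease that also trims the invariant chain of MHC class II, stood at 1522 CPM in footprints at 16 h, against 403 CPM in untreated cells and 331 to 403 CPM over the libraries from 0 to 90 min. In input it stood at 1192 CPM at 16 h, against 264 CPM untreated and 232 to 280 CPM over 0 to 90 min. The 16 h library lay far above all others in both materials. The single-library ratio was 3.77 (95% counting interval 3.62 to 3.93) in footprints and 4.52 (4.29 to 4.75) in input, and the fitted rise was 1.97 ± 0.11 (SE, adjusted p = 6.7e-10) and 2.21 ± 0.092 (adjusted p = 1.9e-10) on the log2 scale. Such ratios compare single libraries. Their intervals cover counting error only, and that only if the unknown step behind the equal library totals left counts of reads.

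Ctsb, a cysteine protease with both endopeptidase and peptidyl-dipeptidase activity, stood at 2860 CPM in footprints at 16 h, against 1302 CPM untreated. In input it stood at 2178 CPM at 16 h, against 767 CPM untreated. Its fitted rise was 1.176 ± 0.098 in footprints (adjusted p = 5.7e-08) and 1.49 ± 0.075 in input (adjusted p = 1.1e-09). The aspartic protease Ctsd stood at 644 CPM in footprints at 16 h, against 306 CPM untreated, and at 539 CPM in input, against 226 CPM. It rose by 1.10 ± 0.11 (adjusted p = 3.2e-07) and 1.26 ± 0.080 (adjusted p = 1.1e-08). Only 35.0% of the 29-base words of the Ctsd coding sequence are absent from every other annotated gene, the rest being shared with the overlapping gene model Gm49369. Ctsz, a carboxypeptidase, rose by 0.55 ± 0.12 in footprints (adjusted p = 0.001) and 0.77 ± 0.080 in input (adjusted p = 1.6e-06). Ctss, which trims the invariant chain in antigen-presenting cells, and Ctsa, a carboxypeptidase that protects beta-galactosidase, were not called in either material, with 0.18 and -0.18 in footprints and 0.19 and 0.10 in input. Ctsc, which activates granule serine proteases, rose in input (0.36 ± 0.12, adjusted p = 0.021) and stood at -0.20 in footprints (adjusted p = 0.16). Under 5 of 17 alternatives, leaving out the untreated library among them, the input call of Ctsc was lost.

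Enzymes that cut sugars and lipids went in both directions. Gla, the alpha-galactosidase deficient in Fabry disease, stood at 74.5 CPM in footprints and 74.5 CPM in input at 16 h, against 41.0 and 28.3 CPM in untreated cells. Its rise was 0.87 ± 0.17 in footprints (adjusted p = 0.00046) and 1.48 ± 0.15 in input (adjusted p = 1.1e-06). Ppt1, which removes palmitate from proteins, rose by 1.01 ± 0.10 (adjusted p = 4.4e-07) and 1.16 ± 0.095 (adjusted p = 1.6e-07). Gaa, the acid alpha-glucosidase that digests glycogen, rose by 0.67 ± 0.12 (adjusted p = 0.00028) and 0.50 ± 0.11 (adjusted p = 0.0011), the call in input being lost without the untreated library. Gusb, the beta-glucuronidase, rose by 0.41 ± 0.12 (adjusted p = 0.0077) and 0.77 ± 0.077 (adjusted p = 1.2e-06), the call in footprints being lost without the untreated library. Asah1, the acid ceramidase, rose in input only (0.31 ± 0.090, adjusted p = 0.0089) and stood at 0.10 in footprints. Its call in input was lost with total counts, with DESeq2 and without the untreated library.

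Among the hydrolases that fell, Man2b1, the lysosomal alpha-mannosidase, stood at 33.8 CPM in footprints at 16 h, against 116 CPM untreated and 96.5 to 116 CPM over 0 to 90 min. In input it stood at 45.6 CPM at 16 h, against 135 CPM untreated and 122 to 138 CPM over 0 to 90 min. The 16 h libraries thus lay below all others. The single-library ratio was 0.29 (0.25 to 0.34) in footprints and 0.34 (0.30 to 0.39) in input, with fitted changes of -1.75 ± 0.13 (adjusted p = 1.2e-08) and -1.54 ± 0.10 (adjusted p = 1.9e-08). Lipa, the acid lipase that frees cholesterol from its esters, fell in both (-0.88 ± 0.10, adjusted p = 2.8e-06, and -0.57 ± 0.082, adjusted p = 4.5e-05). Manba, the beta-mannosidase, fell in footprints (-0.51 ± 0.12, adjusted p = 0.0017) and stood at -0.07 in input. Hexa, the alpha subunit of hexosaminidase, fell in input (-0.34 ± 0.076, adjusted p = 0.0017) and stood at -0.27 in footprints (adjusted p = 0.076). Setting 16 h against the mean of 0 to 90 min in place of the fitted 0 min value ended the calls of Manba and of Hexa. Glb1, the beta-galactosidase, and Tpp1, a tripeptidyl peptidase, were not called in either material (-0.07 to 0.16). In sum, 8 of the 18 hydrolases rose and 3 fell in footprints, with a median of 0.14. In input 10 rose and 3 fell, with a median of 0.34. Of all tested genes 26% rose and 24.6% fell in footprints, and 28.3% and 27% in input. With total counts 8 hydrolases rose and 6 fell in footprints. That scaling called 4902 of all tested genes in footprints, against 4818, with more falls than rises.

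The cofactors moved in opposite directions. Grn, which encodes progranulin, a precursor of peptides that assist several hydrolases, stood at 700 CPM in footprints at 16 h, against 339 CPM untreated and 242 to 339 CPM over 0 to 90 min. In input it stood at 684 CPM at 16 h, against 240 CPM untreated. It rose by 1.13 ± 0.15 (adjusted p = 2.1e-05) and 1.48 ± 0.082 (adjusted p = 3e-09). Psap, whose product is cut into the saposins that present sphingolipids to their hydrolases, stood at 582 CPM in footprints at 16 h, against 1269 CPM untreated and 980 to 1269 CPM over 0 to 90 min. Its input stood at 534 CPM at 16 h, against 912 CPM untreated. Psap fell by 1.12 ± 0.097 (adjusted p = 8.6e-08) and by 0.80 ± 0.078 (adjusted p = 8.9e-07) on the log2 scale.

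Membrane proteins divided in the same way. Cd63, a tetraspanin of late endosomes and lysosomes, stood at 240 CPM in footprints and 144 CPM in input at 16 h, against 80.0 and 44.3 CPM untreated. Its rise of 1.63 ± 0.16 in footprints (adjusted p = 1.8e-06) and 1.74 ± 0.11 in input (adjusted p = 1e-08) was the second in size among the 46 genes in footprints and the third in input. Of its 29-base words, 26.2% are unique, the others being shared with the pseudogene Cd63-ps. Lamp1 and Lamp2, 2 abundant glycoproteins of the lysosomal membrane, went apart. Lamp2 stood at 581 CPM in footprints and 373 CPM in input at 16 h, against 385 and 186 CPM untreated, and rose by 0.60 ± 0.11 (adjusted p = 2e-04) and 1.01 ± 0.082 (adjusted p = 1.5e-07). Lamp1, with the 4 E-boxes shown above, stood at 479 CPM in footprints and 604 CPM in input at 16 h, against 807 and 912 CPM untreated. It fell by 0.75 ± 0.097 (adjusted p = 8.9e-06) and by 0.59 ± 0.082 (adjusted p = 2.9e-05).

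Laptm5, a lysosomal transmembrane protein of blood cells that directs receptors to degradation, fell most in this group. It stood at 178 CPM in footprints at 16 h, against 523 CPM untreated and 406 to 544 CPM over 0 to 90 min, and at 126 CPM in input, against 298 CPM untreated and 286 to 342 CPM. Its changes were -1.51 ± 0.18 (adjusted p = 4.9e-05) and -1.32 ± 0.12 (adjusted p = 7.6e-07). Laptm4a, a relative of Laptm5, rose by 0.51 ± 0.18 (adjusted p = 0.042) and 0.42 ± 0.11 (adjusted p = 0.0061). Mcoln1, a calcium channel of the lysosomal membrane, rose by 0.54 ± 0.19 (adjusted p = 0.028) and 0.74 ± 0.14 (adjusted p = 0.00057). Gpnmb, a glycoprotein of melanosomes and lysosomes, fell in footprints only (-0.35 ± 0.14, adjusted p = 0.041). The calls of Mcoln1, Laptm4a and Gpnmb in footprints were lost without the untreated library. That of Laptm4a was also lost without the 60, 75 or 90 min library and that of Gpnmb without the 15 or 60 min library. Total counts and the square root of time each ended those of Mcoln1 and Laptm4a in footprints. DESeq2 ended those of Mcoln1 and Gpnmb in footprints, and total counts that of Laptm4a in input. Scarb2, the receptor that carries beta-glucocerebrosidase to lysosomes, and Cd68, a macrophage membrane glycoprotein, were not called (0.11 to 0.22). In footprints 4 of the 9 membrane proteins rose and 3 fell, with a median of 0.20. In input 4 rose and 2 fell, with a median of 0.22. Of all tested genes 26% rose and 24.6% fell in footprints, and 28.3% and 27% in input. The difference from these shares was not tested.

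The proton pump genes on the list moved in a single direction. Of the 15 tested, 13 rose in footprints and 14 in input, and none fell in either. Of all tested genes 26% rose and 24.6% fell in footprints, and 28.3% and 27% in input. Of 13 further V-ATPase genes, described below, 3 fell in each material. Each of the 15 had its highest level at 16 h in both materials. The median change was 0.59 in footprints and 0.64 in input. Without the untreated library 9 of the 15 rose in footprints and 12 in input; over all alternatives the rises numbered 9 to 14 and 12 to 14, with no falls. At 16 h pump genes took 0.383% of footprint counts, against 0.257% in untreated cells, and 0.241% of input counts, against 0.161%.

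In the V0 sector, Atp6v0a1, an isoform of the large a subunit through which protons pass, moved most. It stood at 160 CPM in footprints at 16 h, against 52.6 CPM untreated and 43.7 to 68.0 CPM over 0 to 90 min, and at 177 CPM in input, against 48.0 CPM untreated and 48.0 to 81.2 CPM. The rise was 1.57 ± 0.13 (adjusted p = 4.5e-08) and 1.82 ± 0.11 (adjusted p = 6.1e-09). Atp6v0d1, the subunit that links V0 to the central stalk, rose by 0.99 ± 0.11 (adjusted p = 1.2e-06) and 1.06 ± 0.090 (adjusted p = 2.5e-07). The ring subunit Atp6v0b rose by 0.66 ± 0.11 in footprints (adjusted p = 0.00013) and 0.47 ± 0.093 in input (adjusted p = 0.00064). The other ring subunit, Atp6v0c, stood at 508 CPM in footprints and 43.5 CPM in input at 16 h, against 267 and 25.0 CPM untreated, and rose by 1.03 ± 0.14 (adjusted p = 1.2e-05) and 0.83 ± 0.16 (adjusted p = 0.00049). Only 6.64% of its 29-base words are unique, the rest being shared with the pseudogenes Atp6v0c-ps1 and Atp6v0c-ps2, so its counts are uncertain. The small subunit Atp6v0e rose in footprints (0.36 ± 0.14, adjusted p = 0.041), a call lost in 8 of 17 alternatives, among them without the 15, 45 or 60 min library, and stood at 0.20 in input (adjusted p = 0.2). Atp6v0d2 had 17 counts in footprints and 16 in input at 16 h, against 3 and 6 untreated and at most 7 and 6 over 0 to 90 min. Its single-library ratio was 6.14 (1.78 to 32.7) in footprints and 2.99 (1.11 to 9.32) in input.

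In the V1 sector all 8 subunits rose in input and 7 of 8 in footprints, against 28.3% and 26% of all tested genes. Atp6v1a, the catalytic subunit that binds ATP, stood at 590 CPM in footprints and 397 CPM in input at 16 h, against 310 and 191 CPM untreated. Its rise was 0.91 ± 0.10 (adjusted p = 1.7e-06) and 1.01 ± 0.087 (adjusted p = 2.7e-07). The regulatory subunit Atp6v1h stood at 364 CPM in footprints and 259 CPM in input at 16 h, against 178 and 135 CPM untreated, and rose by 1.01 ± 0.11 (adjusted p = 7.2e-07) and 0.99 ± 0.10 (adjusted p = 1.4e-06). Atp6v1d, part of the rotating stalk, rose by 0.69 ± 0.13 (adjusted p = 0.00026) and 0.96 ± 0.12 (adjusted p = 1.6e-05). The noncatalytic nucleotide-binding subunit Atp6v1b2 rose by 0.47 ± 0.11 in footprints (adjusted p = 0.0024) and 0.68 ± 0.095 in input (adjusted p = 3e-05), and the peripheral stalk subunits Atp6v1e1 and Atp6v1g1 rose by 0.49 and 0.59 in footprints and by 0.64 and 0.54 in input. The footprint calls of Atp6v1b2 and Atp6v1e1 were lost without the untreated library. Of the 29-base words of Atp6v1g1, 17.8% are unique, and of those of Atp6v1f 39.2%. Atp6v1f rose by 0.46 ± 0.15 (adjusted p = 0.018) and 0.27 ± 0.11 (adjusted p = 0.047). Leaving out the untreated or the 15 min library ended its call in footprints. Its input call was lost in 12 of 17 alternatives, among them without the untreated, 15, 45, 60, 75 or 90 min library. Total counts and DESeq2 each ended its call in both materials. Atp6v1c1, which regulates the joining of the sectors, rose in input (0.42 ± 0.086, adjusted p = 0.00082; lost without the untreated library) and stood at 0.22 in footprints (adjusted p = 0.17). Of the accessory proteins, Atp6ap1 rose by 0.27 ± 0.10 in footprints (adjusted p = 0.036; lost without the untreated, 15, 45 or 60 min library) and 0.54 ± 0.095 in input (adjusted p = 0.00026). Atp6ap2, also called the prorenin receptor, rose in input only (0.44 ± 0.093, adjusted p = 0.0011) and stood at 0.20 in footprints.

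**Figure D2:**
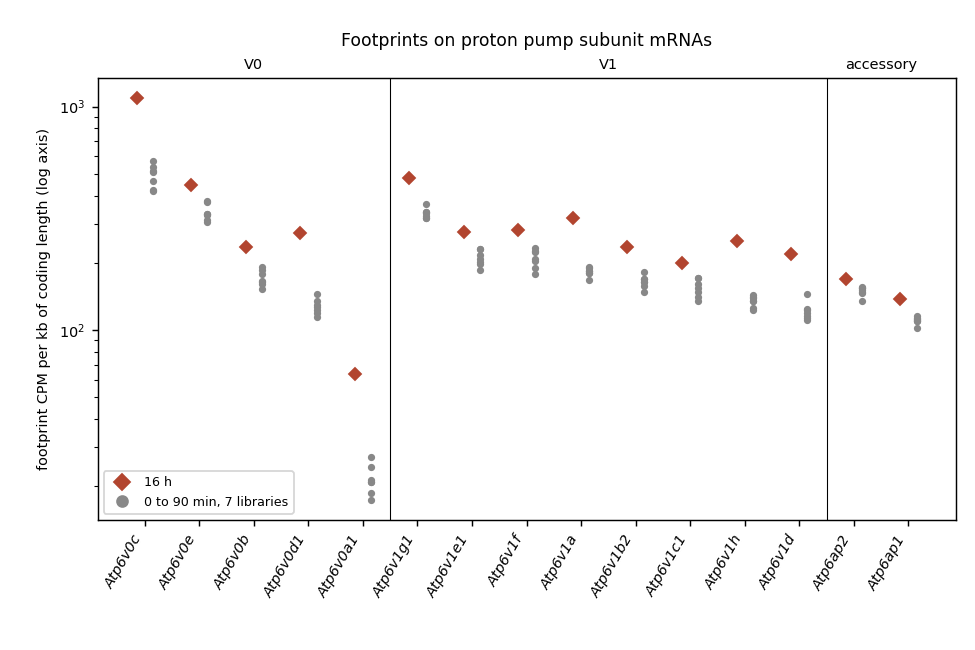
Footprint CPM per kilobase of coding length (log axis) of the 15 tested pump genes at 16 h (red diamonds, 1 library) and at 0 to 90 min (grey points, 7 libraries), grouped by sector. Each 16 h value lies above the 7 earlier ones, and levels within V0 run between 1092 (Atp6v0c) and 63.4 (Atp6v0a1) at 16 h.

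Footprint levels were also ranked per kilobase of coding length, with reads shared between genes counted in a way the sources used here do not give. Ctsb ranked first of the 47 genes at both ends, with 2812 CPM per kb at 16 h, against a median of 1278 over 0 to 90 min. Ctsl ranked 2 at 16 h, with 1519 CPM per kb, against rank 10 by its median of 392 over 0 to 90 min. Psap moved the other way, to rank 14 at 16 h (348 CPM per kb), against rank 2 (698), and Laptm5 to rank 24 (228), against rank 4 (640). Cd63 ranked 15 (337 CPM per kb) at 16 h, against rank 33 (109). The lowest ranks belonged to Tfeb (rank 46, 5.2 CPM per kb at 16 h, against a median of 7.9) and Atp6v0d2 (rank 47, 2.4, against 0.4). Within the pump, Atp6v0a1 was the lowest of the 5 tested V0 genes at each time point, also at 16 h, when its rise was the largest. Ranks of neighbouring genes were not tested for a difference. Together the 18 hydrolases took 0.648% of footprint counts in untreated cells, 0.491% at 90 min and 0.917% at 16 h. Ctsb and Ctsl made up 29814 of these footprint counts at 16 h, against 12571 in untreated cells, and the other 16 together had 31641, against 30892.

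Within the first 90 min few of the 46 genes moved. In footprints 2 rose and 7 fell, against 12.7% and 9.13% of all tested genes (21.8% in all), and in input 4 rose and 7 fell, against 15.2% and 11.9% (27.1% in all). The shares of lysosomal genes called in either direction were thus near those over all tested genes. In both materials the share that rose was lower and the share that fell was higher, a difference that was not tested. The size given here is the furthest point that the fitted curve reached from its 0 min value. Its median was -0.18 in footprints and -0.07 in input, and over all tested genes -0.07 and -0.04. Scaling by total counts gave 1 rise and 24 falls in footprints and 3 and 15 in input. Over all tested genes that scaling called 3541 in footprints, against 2077, and 2998 in input, against 2579. Most of these calls with total counts were falls, so the 24 and 15 do not compare with the shares above. The falls in footprints numbered 13 without the 30 min library, 4 without the untreated, 3 without the 15 or the 75 min and 2 without the 90 min library, and the rises 1 without the 90 min library. In input the falls numbered 3 without the untreated, the 75 or the 90 min library and 4 without the 15 min library.

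**Figure D3:**
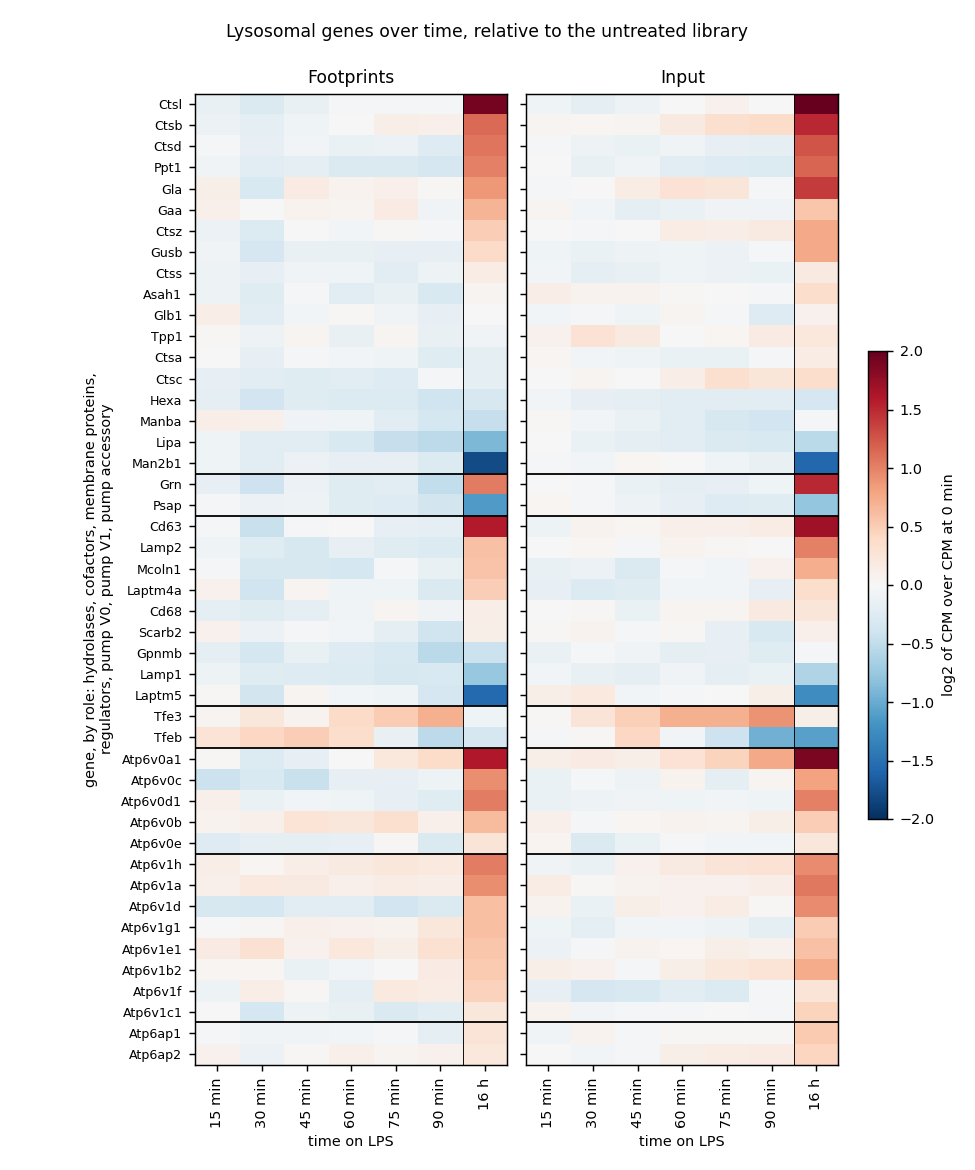
Log2 of the CPM at each time on LPS over the CPM at 0 min for 46 lysosomal genes in footprints (left) and input (right), grouped by role in the order named on the axis; each cell is 1 library set against 1 library. Most cells from 15 to 90 min are pale, and the 16 h column holds the darkest red (Ctsl, Atp6v0a1, Cd63) and blue (Man2b1, Laptm5).

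Both regulators were called within 90 min, Tfe3 as a rise and Tfeb with a sign that did not hold under every alternative. Tfe3 stood at 46.3, 48.2, 54.2, 48.7, 60.5, 65.8 and 75.5 CPM in footprints at 0, 15, 30, 45, 60, 75 and 90 min, and at 43.4 CPM at 16 h. In input it stood at 37.7, 38.1, 45.1, 52.6, 62.0, 61.9 and 69.9 CPM over the same times, and at 40.8 CPM at 16 h. Its levels were thus highest at 90 min in both materials and near the untreated level at 16 h. The fitted rise by 90 min was 0.68 ± 0.12 in footprints (adjusted p = 0.0012) and 0.97 ± 0.11 in input (adjusted p = 8.9e-05), and it was called under all 17 alternatives in each. At 16 h it was not called against 0 min (-0.12 and 0.19), and against the fitted 90 min value it fell by 0.80 ± 0.14 (adjusted p = 2e-04) and by 0.78 ± 0.13 (adjusted p = 0.00019).

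Tfeb was sparse, with 10.6, 12.7, 14.2, 14.8, 13.5, 9.6 and 7.4 CPM in footprints from 0 to 90 min and 8.4 CPM at 16 h. In input it stood at 10.9, 10.6, 11.0, 14.4, 10.4, 8.1 and 5.6 CPM, and at 5.1 CPM at 16 h. Both materials peaked at 45 min, and the lowest early level came at 90 min. The adjusted p beside each excursion below is of the joint test of that curve and not of a fall. The largest fitted excursion was -0.52 ± 0.21 in footprints (adjusted p = 0.007) and -0.78 ± 0.24 in input (adjusted p = 0.014), at 90 min. That sign turned without the untreated library (0.58 in footprints and 0.77 in input) and without the 90 min library (0.51 and 0.30). In footprints it also turned without the 75 min library (0.50) and with the square root of time (0.56). DESeq2 and linear time each ended the call in both materials. At 16 h Tfeb fell in input (-0.95 ± 0.31, adjusted p = 0.017) and stood at -0.31 in footprints (adjusted p = 0.3). That input call was lost with DESeq2, against the mean of 0 to 90 min and without the untreated library.

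**Figure D4:**
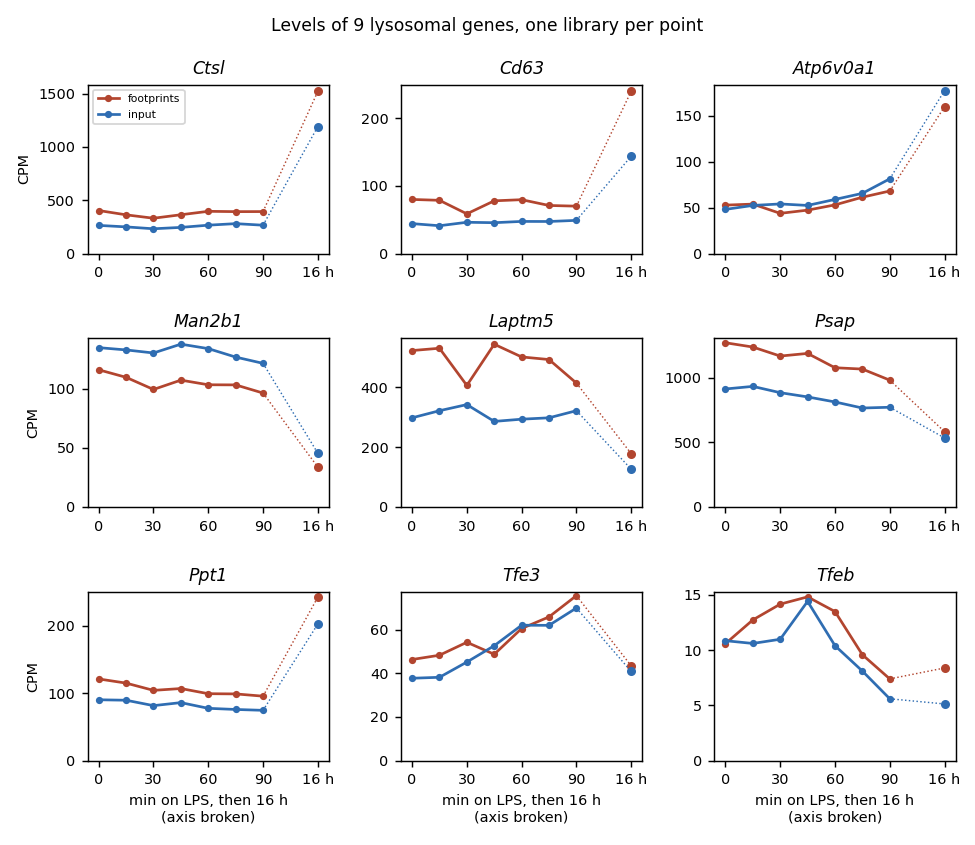
CPM of 9 lysosomal genes in footprints (red) and input (blue) at 0 to 90 min and, after a break in the axis, at 16 h; each point is 1 library and the y axis starts at 0. Ctsl, Cd63, Atp6v0a1 and Ppt1 are highest at 16 h, Man2b1, Laptm5 and Psap lowest, and Tfe3 peaks at 90 min.

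Of the pump genes, Atp6v0a1 was called as a rise within 90 min in both materials and Atp6v1h in input. Its footprints stood at 52.6, 53.7, 43.7, 47.2, 52.9, 61.2 and 68.0 CPM from 0 to 90 min and its input at 48.0, 52.3, 53.9, 52.3, 58.8, 65.4 and 81.2 CPM. Input was highest at 90 min among these libraries and rose by 0.65 ± 0.099 (adjusted p = 0.00043). Footprints rose by 0.37 ± 0.12 (adjusted p = 0.0096). That sign turned with total counts (-0.30), without the untreated library (-0.28) and without the 90 min library (-0.23). Linear time and the square root of time each ended the call. Atp6v1h and the protease Ctsb rose in input only, by 0.40 ± 0.089 (adjusted p = 0.0096) and 0.38 ± 0.065 (adjusted p = 0.0013); the call of Atp6v1h was lost with total counts.

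The early falls were small and took in hydrolases, Psap and membrane proteins. Lipa stood at 450, 423, 386, 385, 364, 328 and 312 CPM in footprints from 0 to 90 min, lower at every step, and fell by 0.51 ± 0.087 (adjusted p = 0.0014), against 0.33 ± 0.068 in input (adjusted p = 0.0066). Manba fell by 0.41 ± 0.099 in footprints (adjusted p = 0.011) and by 0.43 ± 0.084 in input (adjusted p = 0.005). Psap fell by 0.36 ± 0.080 (adjusted p = 0.012) and by 0.30 ± 0.065 (adjusted p = 0.009). Lipa and Psap had thus begun to fall within 90 min and were lower still at 16 h. Scarb2 also fell in both materials (-0.38 ± 0.11, adjusted p = 0.037, and -0.29 ± 0.093, adjusted p = 0.032). Footprints fell on Ppt1 (-0.33 ± 0.090, adjusted p = 0.035) and Lamp1 (-0.31 ± 0.077, adjusted p = 0.022), and input fell for Atp6v1f (-0.31 ± 0.095, adjusted p = 0.046) and Hexa (-0.23 ± 0.061, adjusted p = 0.03). In footprints the call of Psap was lost without the 90 min library, that of Manba without the 15 or 90 min library, and that of Lamp1 without the untreated, 15 or 75 min library. Those of Ppt1 and Scarb2 were lost without any of the untreated, 15, 45, 60, 75 or 90 min libraries, and with DESeq2. In input DESeq2 ended the calls of Scarb2, Atp6v1f and Hexa. That of Psap was lost without the 75 min library and that of Scarb2 without the untreated, 15, 75 or 90 min library. Those of Atp6v1f and Hexa were each lost without any of 6 libraries, the untreated, 15, 45, 75 and 90 min ones with the 30 min library for Atp6v1f and the 60 min library for Hexa.

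The ratio of footprints to input, or footprint density, was the readout the series was built for. No lysosomal gene passed the test for a change in density within 90 min, where 1.28% of all tested genes did (1.14% up and 0.136% down), or at 16 h, where 0.504% did (0.378% up and 0.126% down); DESeq2 also called none. Without the 30 min library, Laptm5 was called as a fall within 90 min (-0.32 ± 0.10, adjusted p = 0.019). At an unadjusted p under 0.05 there were 1 (Ctsc) and 5 (Ctsc, Gla, Gusb, Manba and Lamp2) of the 46, against 9.18% and 10.4% of all tested genes. Those 5 stood at -0.48 ± 0.17, -0.53 ± 0.20, -0.29 ± 0.13, -0.37 ± 0.16 and -0.33 ± 0.13 at 16 h. The median density change at 16 h was -0.12 over the 46 genes, with 14 above 0 and 32 below. Over all 9529 tested genes it was 0.07, with 5699 above 0 and 3830 below. Hydrolases had a median of -0.15 and pump genes of -0.03. Standard errors of 0.13 to 0.38 bound what these tests could show. For Ctsl the change was -0.16 ± 0.13 and for Man2b1 -0.13 ± 0.17.

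Averaged over the 8 time points, density was above that of the typical gene for 39 of the 46 genes and below it for 3, against 43.6% and 41.5% of all tested genes (85% called in all). The median level was 0.61 on the log2 scale, against 0.02 over all tested genes. Cd68 stood at 1.22 ± 0.041 (adjusted p = 2.5e-17), with ratios of footprint to input CPM of 2.10 to 2.52 over the 8 time points, and Atp6v1e1 at 1.08 ± 0.049 (adjusted p = 3.7e-15), with ratios of 1.91 to 2.48. Lamp2 stood at 1.04 ± 0.041 (adjusted p = 3.2e-16), with ratios of 1.89 to 2.39, whereas Lamp1 stood at -0.07 (adjusted p = 0.096), with ratios of 0.89 to 1.02. The ranges of the LAMP genes did not overlap. Below the typical gene were Hexa (-0.57 ± 0.039, adjusted p = 5e-12, ratios 0.62 to 0.75), Mcoln1 (-0.53 ± 0.069, adjusted p = 3e-07, ratios 0.59 to 0.79) and Man2b1 (-0.11 ± 0.041, adjusted p = 0.014; lost without the untreated pair). Atp6v0c stood far apart at 3.50 ± 0.058 (adjusted p = 1.2e-21), with ratios of 9.81 to 14.2; the part of its pseudogene copies, noted above, in that ratio was not tested. By role, the level was above the typical gene for 16 of 18 hydrolases, 6 of 9 membrane proteins and 13 of 15 pump genes. Reads of both materials were 25 to 35 nt long and the sources used here do not give their counting, so levels of this ratio between genes carry any difference in the parts of a transcript that each material covers.

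**Figure D5:**
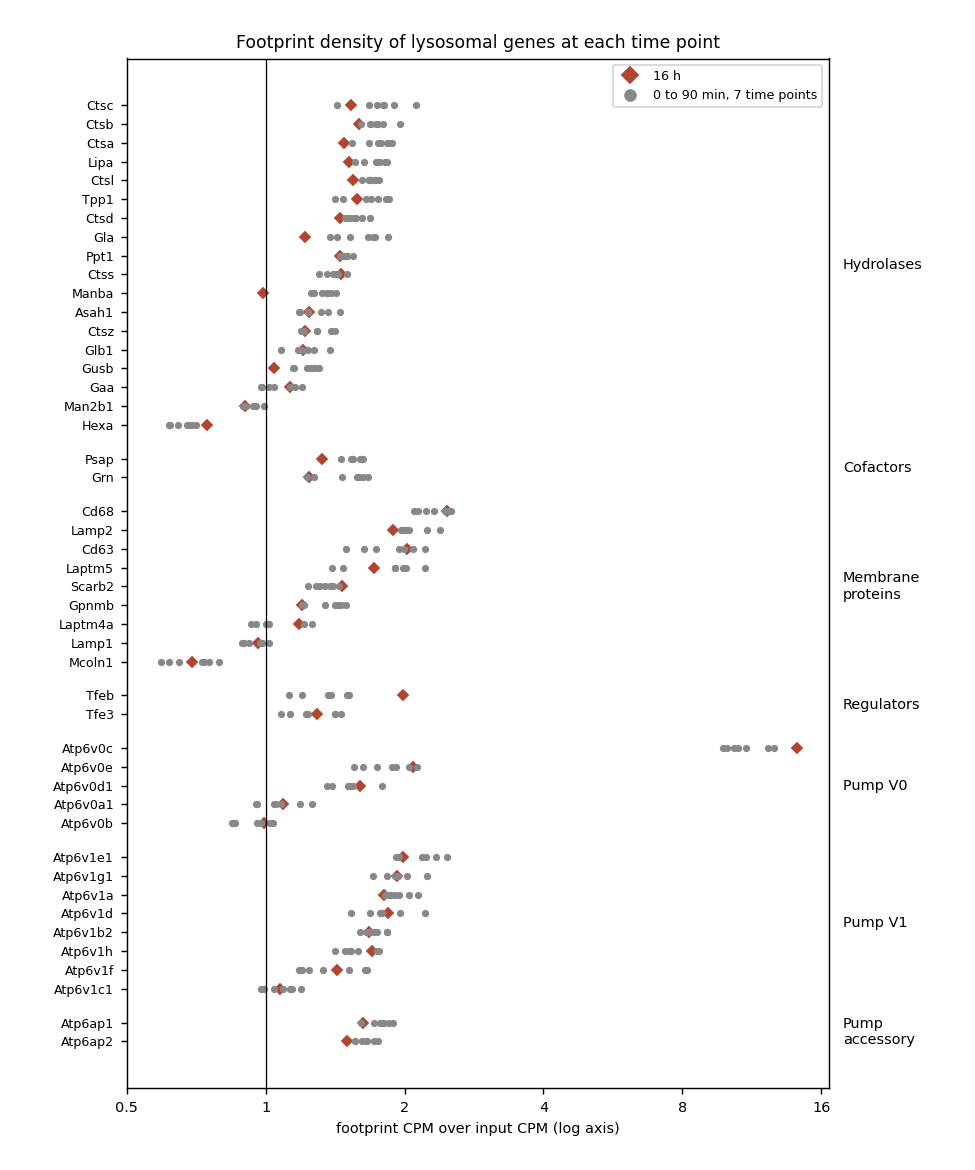
Ratio of footprint to input CPM (log axis) of 46 lysosomal genes at 16 h (red diamonds) and at the 7 time points from 0 to 90 min (grey points), grouped by role; the vertical line marks 1. Most genes lie right of the line, Hexa and Mcoln1 lie left of it, and Atp6v0c lies between 9.81 and 14.2.

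Other lysosomal genes, from lists drawn up by function, gave a backdrop at 16 h. Of 24 other membrane proteins tested, 15 rose and 2 fell in footprints and 14 rose and 2 fell in input. Slc11a1, a metal ion transporter that withdraws iron from engulfed microbes, rose by 2.15 ± 0.19 in footprints (adjusted p = 6e-07) and 1.75 ± 0.11 in input (adjusted p = 1.1e-08), and the channel Mcoln2, a relative of Mcoln1, by 1.70 ± 0.18 (adjusted p = 1.1e-06) and 1.74 ± 0.18 (adjusted p = 1.7e-06). The endolysosomal channel Tpcn1 fell (-1.82 ± 0.23, adjusted p = 1.4e-05, and -1.81 ± 0.13, adjusted p = 4.8e-08). Of 13 further V-ATPase subunits, isoforms and assembly factors, 8 rose and 3 fell in footprints and 9 and 3 in input. Among them Tcirg1, the a3 isoform of the a subunit, rose by 1.31 ± 0.13 in footprints (adjusted p = 4.7e-07) and 1.16 ± 0.094 in input (adjusted p = 1.5e-07), and Vma21, a chaperone of V0 assembly, by 1.43 ± 0.17 (adjusted p = 3.9e-06) and 1.62 ± 0.25 (adjusted p = 8.1e-05). Rogdi, a component of a complex that assembles the pump, fell (-1.325 ± 0.22, adjusted p = 9.4e-05, and -1.175 ± 0.26, adjusted p = 0.0017), as did Atp6v0e2 and Ccdc115 in both materials.

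Among 32 other hydrolases there were 12 rises and 9 falls in footprints and 9 and 8 in input, and in input these shares are near the 28.3% and 27% of all tested genes. The largest falls were in Arsb, a sulfatase (-2.73 ± 0.15, adjusted p = 3e-10, and -1.96 ± 0.17, adjusted p = 3.2e-07), and Naaa, an amidase (-2.34 ± 0.25, adjusted p = 1.1e-06, and -2.36 ± 0.18, adjusted p = 6.4e-08). Of 29 genes of sorting and transport to lysosomes, 6 rose and 3 fell in footprints and 12 and 5 in input; M6pr, a receptor that carries hydrolases by their mannose 6-phosphate, rose by 1.15 ± 0.11 (adjusted p = 4.3e-07) and 1.19 ± 0.086 (adjusted p = 4.3e-08). Of 22 genes that control TFEB and TFE3, 5 rose and 7 fell in footprints and 5 and 5 in input. The all-gene shares beside these counts are 26% up and 24.6% down in footprints and 28.3% and 27% in input. Of the Rag GTPases, which recruit mTORC1 and TFEB to lysosomes, Rraga rose (0.89 ± 0.11, adjusted p = 3.8e-06, and 1.25 ± 0.20, adjusted p = 0.00011). Rragb fell (-1.57 ± 0.27, adjusted p = 0.00013, and -1.44 ± 0.23, adjusted p = 0.00013). Rragc rose in both materials by less than Rraga, and Rragd was not tested.

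These lists also held early changes. Pla2g15, the lysosomal phospholipase, fell in footprints (-2.88 ± 0.24, adjusted p = 1.4e-06) and in input (-3.48 ± 0.32, adjusted p = 1.1e-05). Tmem55b, a lysosomal membrane protein that links lysosomes to dynein, fell by 1.51 ± 0.20 (adjusted p = 7e-05) and by 1.61 ± 0.23 (adjusted p = 0.00053). Among the controllers of TFEB and TFE3, the folliculin partner Fnip2 fell (-1.175 ± 0.26, adjusted p = 0.034, and -0.97 ± 0.15, adjusted p = 0.0038), and its relative Fnip1 rose in both (0.69 ± 0.13, adjusted p = 0.0031, and 0.55 ± 0.097, adjusted p = 0.0026).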

How the data were processed

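RAW264.7 cells were sampled untreated and at 7 times on LPS, with 1 footprint and 1 input library each. Footprints and input were size-selected at 25 to 35 nt, and 10% of each lysate was kept as input, per the labels' protocols. The deposited counts are whole numbers per gene. The deposited DESeq2-normalised signal, per the file headers, is those counts divided by a size factor, and served only as a check (largest relative deviation 9.9e-15). The submitters' processing notes name Bowtie 0.12.8, DESeq2 1.18.1 and mm10; the sources used here do not give the counting, strand, treatment of shared reads or the step behind equal totals. No per-sample column was left unused.

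Counts were tested with edgeR 4.0.16 in R 4.3.3 (quasi-likelihood F-test, robust, TMM within each fit, Benjamini-Hochberg over 9529 genes, threshold 0.05). Each material was fitted with linear and quadratic terms over 0 to 90 min and a 16 h term (4 residual degrees of freedom), so errors are the scatter of libraries around that curve, and the single 16 h library is taken to scatter as the rest do. No sources state separate cultures. Density was fitted over the 16 libraries, blocked by time point, since both materials of a time share a lysate by protocol; its mean level had 7 residual degrees of freedom. Scripts were tested on simulated data. Coding lengths and shared 29-base words came from GENCODE M21, promoters from RefSeq. Counting intervals are exact 95% binomial intervals. They take the deposited counts as reads, though the step behind the equal totals is not known. Without molecular identifiers they cover counting error only. Alternatives were scaling, DESeq2 1.42.0, filters, time terms, the block and leaving out time points. Members and lists were chosen with earlier results of these data known. All 47 members could be named; full statistics went to called members with a log2 change of at least 1, or else the 12 largest, and others where a role group needed them; of other lists, at most 3 called genes with the largest change per comparison.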

Additional observations from a re-analysis of the deposited data

Results flagged for a closer look

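Some lysosomal genes differed between 90 min and 16 h by the test of that difference, with a call within 90 min that was absent or turned round at 16 h. In footprints Ppt1 stood 1.33 ± 0.10 higher at 16 h than at 90 min on the log2 scale (adjusted p = 2.4e-08), having risen at 16 h (1.01) and fallen within 90 min (-0.33) against untreated cells. Input of Atp6v1f likewise stood 0.32 ± 0.11 higher (adjusted p = 0.027), with 0.27 at 16 h and -0.31 at 45 min. Tfe3 stood lower at 16 h than at 90 min, by -0.80 in footprints (adjusted p = 2e-04) and -0.78 in input (adjusted p = 0.00019). Scarb2 stood higher, by 0.48 in footprints (adjusted p = 0.0041) and 0.41 in input (adjusted p = 0.0058), and input of Manba by 0.36 (adjusted p = 0.0072); neither was called at 16 h against untreated cells in those materials. Each value rests on 1 library at 16 h and a fitted curve before it. Of 17 alternatives, the early call was lost in 7 for Ppt1 footprints, 10 for Atp6v1f input and 8 for Scarb2 in each material. The 16 h call of Atp6v1f input was lost in 12. The genes were picked by an early call from the same fit, so the difference was not tested apart from that choice.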

How the results depend on the processing

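Equal library totals and 1 library per group limit every result: depth is unknown, and ratios of single libraries have no replicate behind them. Scaling by total counts moved the median of all tested genes to -0.32 in footprints and -0.17 in input over 0 to 90 min (main values -0.07 and -0.04), to -0.20 in density (-0.05), and to -0.10 and -0.16 at 16 h (0.00 and 0.01). All-gene calls then numbered 723 up and 2818 down in footprints and 1007 and 1991 in input over 0 to 90 min, against 1207 and 870, and 1448 and 1131, and 2104 and 2798, and 2107 and 3376, at 16 h, against 2476 and 2342, and 2692 and 2577.

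Over 0 to 90 min, the 7 falls in input became 15 with total counts, 3 with DESeq2 and 3 with the square root of time. In footprints the 7 falls became 24 with total counts and 4 with DESeq2, and the 2 rises became 1 with total counts, 1 with linear time and 1 with square-root time. Genes below the typical density numbered 7 with total counts and 5 with a minimum of 30 counts, against 3. Leaving out 1 time point gave 4 to 6 rises and 3 to 7 falls in input and 1 to 3 and 2 to 13 in footprints over 0 to 90 min, 0 rises and 0 to 1 falls in density, 24 to 31 and 6 to 7 in input and 19 to 26 and 6 to 8 in footprints at 16 h, 0 and 0 in density at 16 h, and 37 to 41 above and 2 to 4 below the typical density. Signs turned for Tfeb in input (0.77 without 0 min and 0.30 without 90 min) and in footprints (0.56 with the square root of time, 0.58 without 0 min, 0.50 without 75 min and 0.51 without 90 min), within leave-one-out ranges of -0.88 to 0.77 and -0.55 to 0.58. They also turned for Atp6v0a1 in footprints (-0.30 with total counts, -0.28 without 0 min and -0.23 without 90 min, in a leave-one-out range up to 0.45) and in density level for Gaa (-0.11) and Atp6v1c1 (-0.11) with total counts. The causes were not tested. No call at 16 h turned sign. Without the replicate block of the time point, density still gave 0 rises and 0 falls over 0 to 90 min and at 16 h, and the density level 32 above and 2 below, with the calls of Ctsl, Gaa, Gusb, Man2b1, Grn, Tfeb, Tfe3 and Atp6v1c1 lost. edgeR without robust estimation and TMM over all 16 libraries were chosen after seeing the data and moved none of these counts of lysosomal genes by over 1.5 times.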
